A study of Mus musculus with 2 samples.

Results

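A group of 9 genes of the muscle cell surface, namely Dmd, Sgca, Sgcb, Sgcd, Dag1, Chrna1, Musk, Cav3 and Dysf, was compared between the bulge, the resting place of follicle stem cells, and the hairshaft, as 2 structures dissected from mouse skin. They were taken by gene symbol from the array's annotation, which gave 17 of 45101 probe sets and 9 of 18194 genes. Both structures were cut by laser from stained frozen skin of C57Bl6 mice aged 21 days, without treatment in the labels, and each was hybridised to 1 array. The sources used here do not give the number, sex or body site of the mice, or how each structure was recognised. All values are log2 GCRMA signals, in which 1 unit is a 2-fold difference. With 1 array per structure no spread could be estimated, so no difference was tested and every value below describes these 2 arrays.

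Dystrophin, made by Dmd, is a long rod that ties the actin skeleton of a muscle fibre to a set of proteins in its membrane. In that membrane dystroglycan (Dag1) holds the extracellular matrix, and the sarcoglycans (Sgca, Sgcb, Sgcd and others) stabilise the link. Loss of dystrophin or of a sarcoglycan causes muscular dystrophy. At the neuromuscular junction, the acetylcholine receptor (Chrna1 makes its alpha subunit) receives the nerve's signal, and the kinase Musk gathers the receptors under the nerve ending. Cav3 forms the caveolae of muscle membrane, and dysferlin (Dysf) helps reseal torn membrane. Mouse skin lies over a thin sheet of striated muscle, and the follicle also has a smooth muscle of its own.

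Promoter sequences were searched for E-boxes (CANNTG), and among them the form CAGCTG, which are the letters bound by the myogenic factors that switch on muscle genes. The RefSeq table (GRCm38.p6) held 12 promoters for all 9 genes, and the 250 bases before each transcript start were searched on both strands. CAGCTG, itself an E-box, was found in the windows of Chrna1, Cav3 and Musk, that is in 3 of 12 windows, against 13% of 32851 windows of all genes. Any E-box was found in 8 of 12, against 66.2% of all windows, and no sequence searched was common to all 9 genes. The windows of Dag1 overlap and hold the same CACTTG, which is counted in each. E-boxes of any form were thus no more frequent here, and the share of neither E-box nor CAGCTG was tested. The windows of Sgcb and Dysf held no E-box. The N-box CCGGAA, known from genes of the synapse, was in none of the 12 windows and in 12% of all. The 3 windows with CAGCTG are shown together with that of Sgca, whose difference between arrays was at least 4.14 (log2), with no such motif. Each runs to the base before the start, with E-boxes in capitals. The windows are chr2:73580339-73580588 (minus strand) for Chrna1, chr6:112459255-112459504 (plus strand) for Cav3, chr4:58285712-58285961 (plus strand) for Musk and chr11:94976328-94976577 (minus strand) for Sgca.
Chrna1: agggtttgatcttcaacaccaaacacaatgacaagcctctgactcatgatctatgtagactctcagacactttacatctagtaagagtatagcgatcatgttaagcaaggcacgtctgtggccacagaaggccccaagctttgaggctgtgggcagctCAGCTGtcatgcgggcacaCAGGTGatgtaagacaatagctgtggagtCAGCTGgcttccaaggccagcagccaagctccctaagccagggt
Cav3: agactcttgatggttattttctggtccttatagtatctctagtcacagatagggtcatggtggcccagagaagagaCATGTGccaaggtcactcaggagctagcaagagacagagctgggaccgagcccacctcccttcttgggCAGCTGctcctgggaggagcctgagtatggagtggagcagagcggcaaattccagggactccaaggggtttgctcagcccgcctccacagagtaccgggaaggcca
Musk: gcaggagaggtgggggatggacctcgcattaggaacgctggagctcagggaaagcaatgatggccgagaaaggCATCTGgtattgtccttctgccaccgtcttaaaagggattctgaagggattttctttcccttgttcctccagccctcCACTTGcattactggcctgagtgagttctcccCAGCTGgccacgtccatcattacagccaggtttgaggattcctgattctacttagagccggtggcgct
Sgca: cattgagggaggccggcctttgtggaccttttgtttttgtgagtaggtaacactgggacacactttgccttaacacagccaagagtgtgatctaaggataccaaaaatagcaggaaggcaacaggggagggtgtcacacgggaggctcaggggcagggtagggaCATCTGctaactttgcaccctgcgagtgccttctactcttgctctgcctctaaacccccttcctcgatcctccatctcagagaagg
In the Chrna1 window CAGCTG begins 92 and 44 bases before the start, with the E-box CAGGTG between them at 73. In Cav3 it begins at 106 and in Musk at 68. The only E-box of the Sgca window is CATCTG, at 86. These are matches of letters and not measured binding sites.

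Bulge markers went with the label of the bulge array, but hair shaft keratins did not go with that of the hairshaft array. Of 7 bulge markers, 6 were higher in the bulge array by 2-fold or more, all but Krt15. Of 9 hair shaft keratins, 5 were so and 0 were higher by this much in the hairshaft array, which goes against the label of the hairshaft array. With 1 array of each, no result could be given without the hairshaft array. Markers of skeletal muscle (11 of 11), fat (5 of 5 measured) and vessels (6 of 6), given below, were also 2-fold or more higher in the bulge array. Those of keratinocytes were under 2-fold apart (4 of 4). The bulge markers therefore do not show that the bulge array held the bulge alone. A background floor of 2.68 on both arrays, the 95th percentile of the signals of 80 smell and pheromone receptor probe sets, marks what counts as measured. A value at or below it was set to the floor in a difference, and such a fold is written as "at least". Among all genes above the floor, 11.4% were higher by 2-fold or more in the bulge array and 4.91% in the hairshaft array. Bulk signals do not tell fewer cells of a type from less RNA per cell.

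Of the 9 genes, 7 were above the floor on at least 1 array, and 6 of these (Dmd, Sgca, Sgcb, Chrna1, Cav3 and Dysf) had a bulge value 2-fold or more above that of the hairshaft. Among all 13329 genes above the floor, 11.4% were this much higher in the bulge. In the other direction the count was 0 of the 7, and 4.91% of all genes. At 8-fold, Sgca and Dysf were counted, against 3.02% of all genes. This count of 2 became 0 with the 99th percentile of the receptor signals as floor or with an offset of 16 on the linear scale, and 1 with a floor at each array's median or with plain probe sets only (those without a suffix for shared sequence). Dag1 was under 2-fold apart, and Sgcd and Musk did not exceed the floor on either array. The median difference of the 7 was 2.27, and that of all genes above the floor was 0.00. With no floor, which keeps Sgcd and Musk, the median of the members was 2.08. Sgca and Cav3 entered the 7 only through their bulge values, and the 9 genes were chosen with earlier results of these data known. The counts and medians beside those of all genes are therefore a description and not support. By probe set, 13 of 17 were above the floor and 9 were 2-fold or more up in the bulge, against 9.52% of all probe sets above it. At 8-fold the count was 2, against 2.13%, and in the hairshaft direction it was 0 at 2-fold, against 7.37%. The plot of all 17 probe sets shows both values of each.

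**Figure D1:**
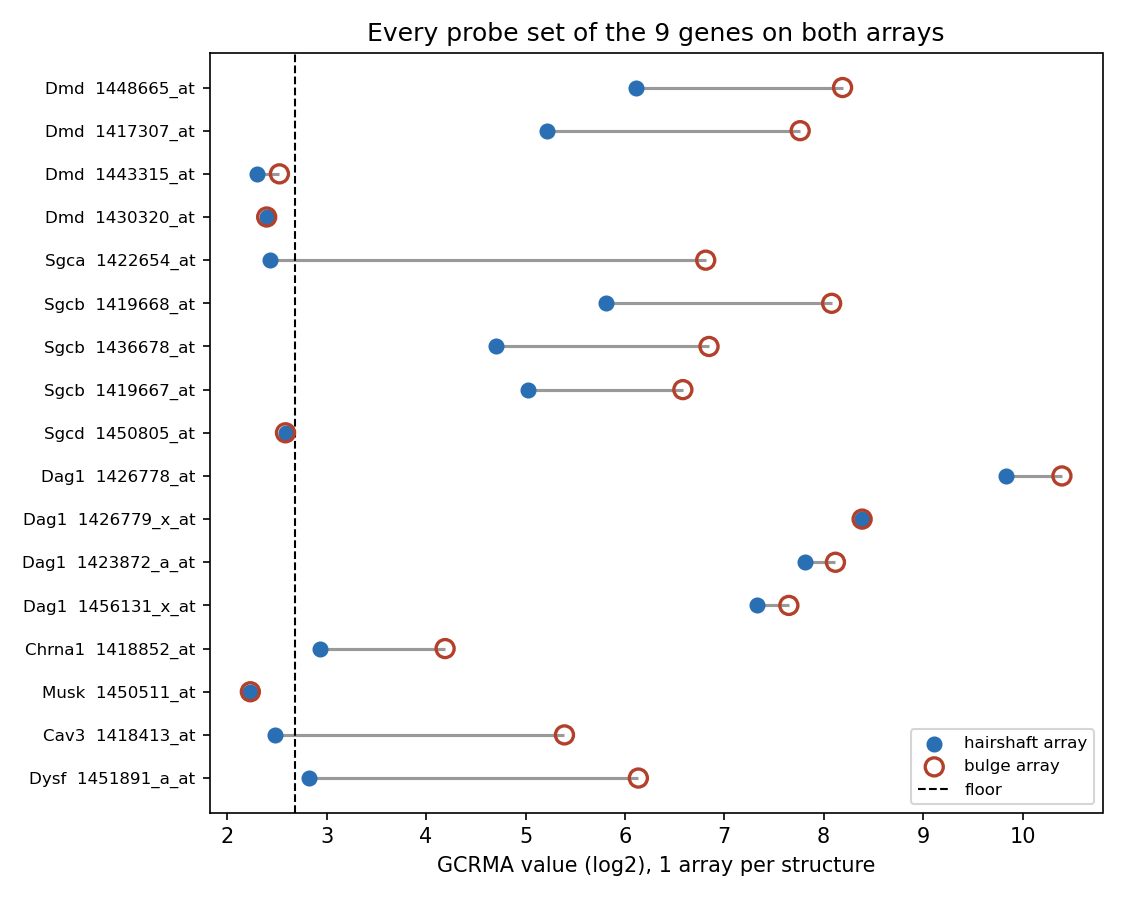
Log2 GCRMA value (horizontal axis) of every probe set of the 9 genes on the hairshaft array (filled blue) and the bulge array (open red), with the floor as a dashed line. The 9 probe sets of Dmd, Sgca, Sgcb, Chrna1, Cav3 and Dysf above the floor lie 1.26 or more higher in the bulge, those of Dag1 lie close together, and 4 probe sets are left of the floor on both arrays.

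Dystrophin itself was measured in both structures and was higher in the bulge. Probe set 1448665_at of Dmd read 8.19 in the bulge. It read 6.11 in the hairshaft, so that the arrays were 4.22-fold apart. Probe set 1417307_at, annotated with the same transcript record, read 7.76 and 5.21, or 5.86-fold. Both probe sets thus put the bulge higher, with differences of 2.08 and 2.55. The other Dmd probe sets, 1443315_at and 1430320_at, were not above the floor, at 2.52 and 2.40 in the bulge and 2.30 and 2.40 in the hairshaft. The mean over all 4 probe sets gave a difference of 1.21. Dmd makes several transcripts from separate starts, and the probe positions are not used here, so which of them each probe set reads was not analysed here.

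The sarcoglycans were divided between well measured and unmeasured. Sgca, the alpha-sarcoglycan of striated muscle, read 6.81 in the bulge and 2.43 in the hairshaft, where it was below the floor, which puts the bulge at least 17.6-fold above it (log2 4.14). Of all genes above the floor, 1.61% had a difference this high or higher. Sgcb, the beta-sarcoglycan, which is also made outside muscle, was above the floor in both structures with all 3 of its probe sets. Probe set 1419668_at read 8.08 and 5.81, 1436678_at read 6.85 and 4.70, and 1419667_at read 6.58 and 5.03, in the bulge and the hairshaft. The 3 put the bulge higher by 2.94-fold to 4.81-fold. Sgcd, the delta-sarcoglycan, had 1 probe set at 2.59 on both arrays, below the floor, so these arrays hold no measure of its difference.

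Dystroglycan was the member with nearly equal values. Its probe set 1426778_at read 10.40 in the bulge against 9.84 in the hairshaft, 1.47-fold apart. Probe set 1423872_a_at read 8.12 and 7.81, and 1456131_x_at read 7.65 and 7.33. Probe set 1426779_x_at had the same value, 8.39, on both arrays. All 4 were thus between 0.00 and 0.56 apart, none of them higher in the hairshaft. Dag1 is made in many tissues, epithelia among them, as a receptor for laminin.

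Of the 2 junction genes among the 9, Chrna1 and Musk, only Chrna1 was above the floor. Chrna1 read 4.19 in the bulge against 2.93 in the hairshaft, 2.40-fold apart and close to the floor on the hairshaft array. With 16 added on the linear scale its difference was 0.54 in place of 1.26, under 2-fold. It was 0.72 with each array's median as floor. With a stricter floor of 4.21, the 99th percentile of the same receptor signals, it was not above background on either array. Musk read 2.23 on both arrays, the lowest value in the table. The label of a neuromuscular junction group therefore rests, among the 9, on 1 dim gene.

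Of the 9 genes, the caveola gene Cav3 and the membrane repair gene Dysf were higher in the bulge and near background in the hairshaft. Cav3, the caveolin of muscle, read 5.39 in the bulge and 2.48 in the hairshaft, below the floor, and was at least 6.57-fold higher (log2 2.72). Dysf read 6.14 in the bulge and 2.82 in the hairshaft, just above the floor, 9.93-fold apart (log2 3.31). Each has 1 probe set, so no second probe set could be set beside it. With that stricter floor the difference was 1.18 for Cav3, 1.92 for Dysf and 2.60 for Sgca (log2), and with the offset of 16 they were 1.37, 1.90 and 2.52. Each of these 6 values is still above the 2-fold limit.

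The hairshaft values separate the members. In that array Sgca, Chrna1, Cav3 and Dysf lay between 2.43 and 2.93, at or near the floor, while Dmd, Sgcb and Dag1 read 6.11, 5.81 and 9.84 with their brightest probe sets. Levels of different probe sets are not comparable in amount, and this says only which genes had signal above background in the hairshaft array.

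**Figure D2:**
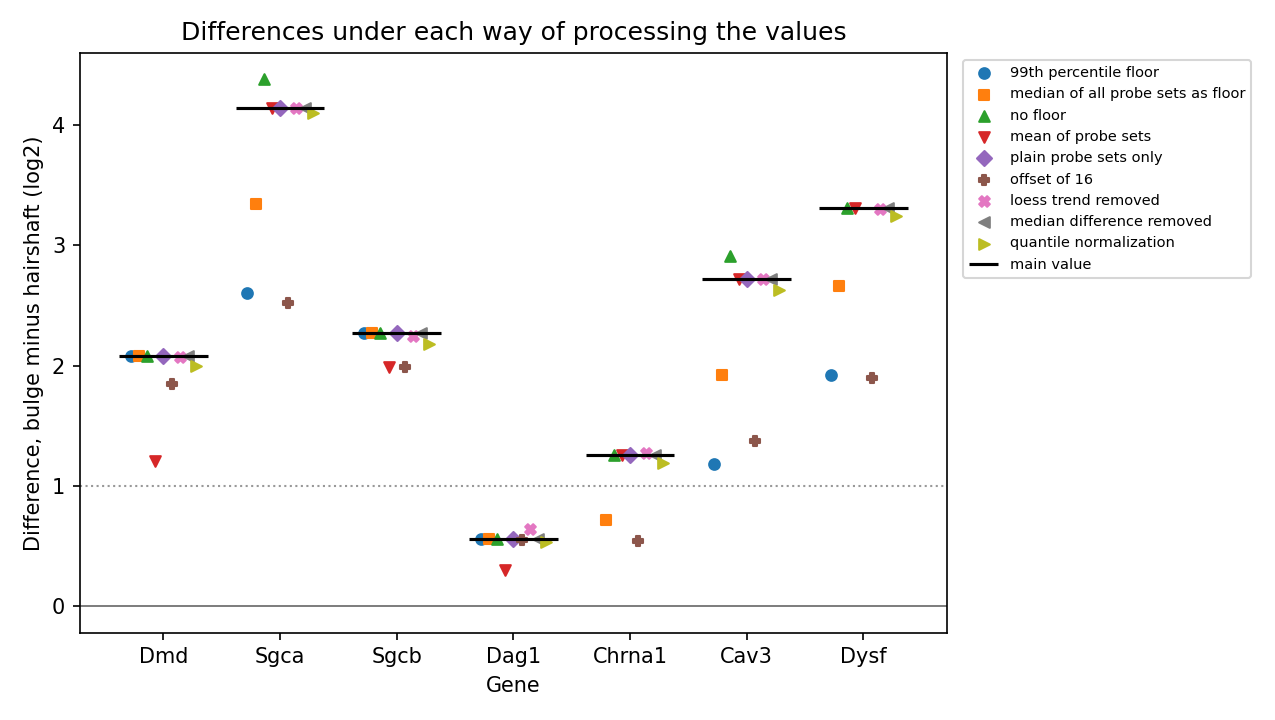
Log2 difference, bulge minus hairshaft, of the 7 genes above the floor (vertical axis), with the main value as a black bar and each of 9 alternatives as a symbol. No value is below 0; Sgcb and Dag1 move least, and Sgca, Cav3 and Dysf become smaller with a higher floor or the offset.

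Dmd, Sgca, Cav3 and Dysf, called muscle genes here, were set beside relatives made in more tissues, in pairs chosen with values known. The other members were not paired. Utrophin (Utrn), which resembles dystrophin, read 9.47 in the bulge against 9.16 in the hairshaft, a difference of 0.31 beside 2.08 for Dmd. Epsilon-sarcoglycan (Sgce) read 6.75 and 4.99, a difference of 1.76 beside at least 4.14 for Sgca. Both relatives had signal in the hairshaft, and both were less far apart than the muscle gene. The caveolins Cav1 and Cav2 differed by 0.49 and 0.34, beside at least 2.72 for Cav3. Myoferlin (Myof), the relative of dysferlin, read 7.92 and 8.04, a difference of -0.12 beside 3.31 for Dysf. In all 5 pairs the muscle gene had the larger difference, by 1.76 to 3.44 (log2), which was not tested. It was also larger under every alternative that gave both values, but by as little as 0.69 (Cav3 and Cav1) and 0.84 (Sgca and Sgce, and Cav3 and Cav2) with the stricter floor. The count of 5 pairs depends on which relatives were chosen, and Cav3 enters it with both Cav1 and Cav2. Sgca and Cav3 passed the floor only through their bulge values. The count is therefore a description and not support, under the alternatives too. Dtna, another gene of the complex given below, differed by 2.63, more than Dmd.

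**Figure D3:**
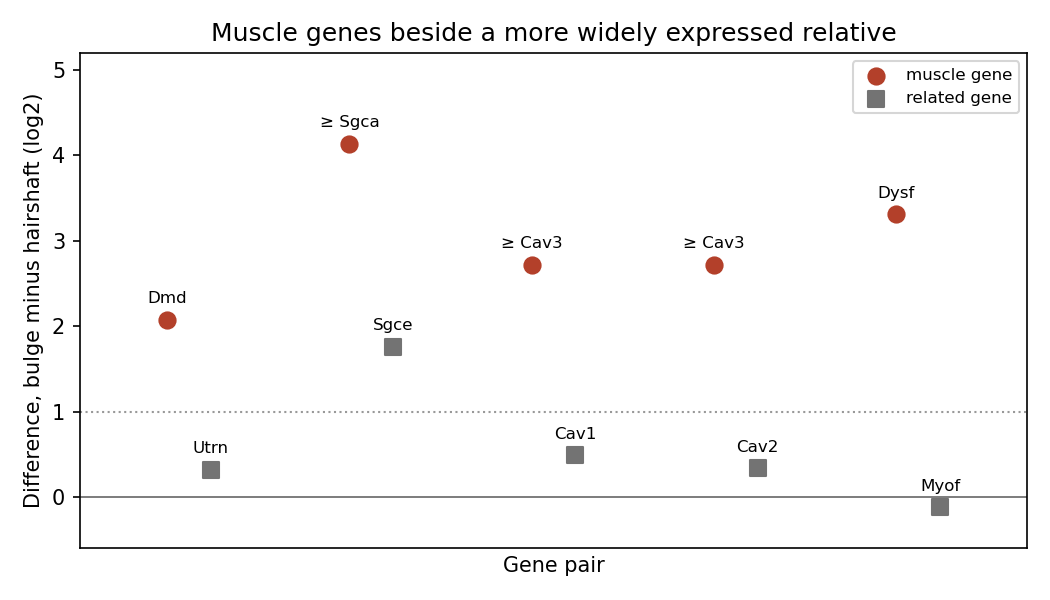
Log2 difference, bulge minus hairshaft (vertical axis), of a member (red circle, "≥" where it is a lower bound) and of a related gene (grey square) for 5 pairs. The members lie between 2.08 and 4.14 and the relatives between -0.12 and 1.76.

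The rest of the dystrophin complex was mostly under 2-fold apart. Of 12 genes measured, 10 were above the floor. Of these, 3 were higher in the bulge by 2-fold or more (11.4% of all genes above the floor) and 1 in the hairshaft (4.91%). The other 6 differed by less, and the median was 0.49. Sarcospan (Sspn), a small membrane protein of the complex, read 8.90 and 5.47 with its brighter probe set (3.43), while its other probe set was 0.14 apart. Dtna, alpha-dystrobrevin, read 5.56 and 2.92 (2.63), with 3 of its 6 probe sets above the floor higher in the bulge by 2-fold or more. The third was Sgce. Sntb2, a syntrophin that binds dystrophin's end, read 4.77 in the bulge against 5.91 in the hairshaft, a difference of -1.14 seen with 1 of its 4 probe sets. Sntg1 and Sntg2 were not above the floor.

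Enzymes that put sugars on dystroglycan had small differences, as Dag1 did. Of 12 measured genes, all above the floor, 11 were under 2-fold apart and the median was -0.01. Pomgnt1, which adds a sugar to O-mannose, was the exception, at 7.16 and 6.15, just at the 2-fold limit. Among all genes above the floor, 11.4% were higher in the bulge by 2-fold or more. Gmppb, an enzyme that supplies mannose, read 6.46 and 7.37 (-0.91), Rxylt1 differed by 0.67 and Dpm2 by -0.52.

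The remaining genes of the neuromuscular junction were mostly under 2-fold apart or not above the floor. Whether muscle synapses were present was not tested. Of 14 genes, 10 were above the floor. Of these, 2 were higher in the bulge by 2-fold or more (11.4% of all genes above the floor) and 0 in the hairshaft (4.91%). The other 8 differed by less, and the median was -0.09. The 2 were Chrnb1, the beta subunit of the muscle receptor, at 3.88 and 2.76 (1.11), and the transcription factor Etv5 at 6.76 and 5.18 (1.57). Chrnd, the delta subunit, read 2.84 on both arrays. The subunits Chrne and Chrng, the receptor anchor Rapsn and the nerve-derived factor Nrg1 did not exceed the floor on either array. Acetylcholinesterase (Ache) read 4.91 and 5.80 (-0.89), and agrin (Agrn), the signal that activates Musk and a component of basement membranes, 10.23 and 9.80 (0.44).

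Membrane repair and caveola genes held some large differences among many small ones. Of 17 genes above the floor, 6 were higher in the bulge by 2-fold or more (11.4% of all genes) and 1 in the hairshaft (4.91%). The other 10 differed by less, and the median was 0.34. Bin1, which shapes the transverse tubules of muscle and is made elsewhere too, read 9.63 and 4.58 (5.05). Cavin4, the muscle cavin, read 6.20 in the bulge and was below the floor in the hairshaft (at least 3.52). Capn3, a muscle protease, read 7.10 and 3.18 (3.92), with its other probe set at 0.92. Cavin2, found in caveolae of vessels and fat, read 10.05 and 5.23 (4.81), and its 3 probe sets differed by 4.81 to 4.98. The other 2 higher in the bulge were Cavin1 at 1.93 and Anxa6 at 1.54, each with probe sets near 0. Ehd1, a membrane trafficking protein, read 8.75 and 9.75, just at the 2-fold limit toward the hairshaft with 1 of 4 probe sets. Trim72 was not above the floor.

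Costamere genes, which anchor the contractile apparatus to the membrane, had a median difference of 0.84. Of 11, 4 were higher in the bulge by 2-fold or more, against 11.4% of all genes above the floor. The other 7 differed by less. Desmin (Des), the intermediate filament of muscle, read 11.18 and 4.69 (6.49), filamin C (Flnc) 8.18 and 5.27 (2.91), talin 2 (Tln2) 6.79 and 4.41 (2.38), and synemin (Synm) 8.65 and 6.77 (1.88). Flnc, Tln2 and Synm showed this with all their probe sets above the floor.

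**Figure D4:**
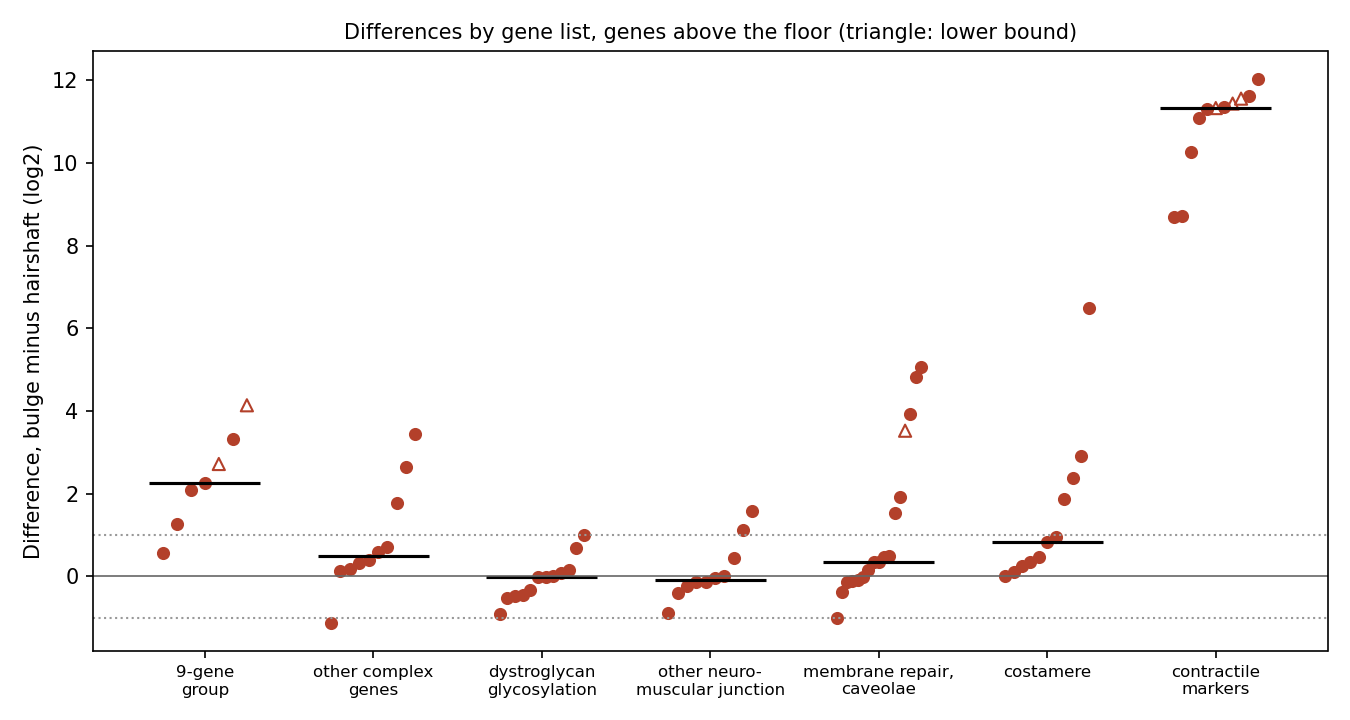
Log2 difference, bulge minus hairshaft (vertical axis), of each gene above the floor in the 9-gene group, in 5 lists of related genes and in the contractile markers; triangles are lower bounds, horizontal bars medians and dotted lines the 2-fold limit. The medians are 2.27 for the 9-gene group, -0.09 to 0.84 for the 5 related lists and 11.33 for the contractile markers.

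Contractile markers of skeletal muscle had large differences. All 11 were higher in the bulge by 8-fold or more, against 3.02% of all genes above the floor. Their differences were 8.68 to 12.04, 3 of them lower bounds. The differences of the 7 members are not ranked against these, because Sgca, Chrna1, Cav3 and Dysf read only 4.19 to 6.81 in the bulge, over a floor of 2.68, and could not have differed by as much. The log2 of the summed signal of these markers was 17.53 in the bulge against 6.65 in the hairshaft. Muscle stem cell markers (Pax7, Myf5, Cdh15 and Calcr) did not exceed the floor on either array, and nor did 4 of 5 cardiac markers. The exception, Tnnt2, had a difference of -1.70, toward the hairshaft.

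Markers of smooth muscle, vessels and fat were mostly higher in the bulge too, while those of keratinocytes were not. Among all genes above the floor, 11.4% were higher in the bulge by 2-fold or more. Of 8 smooth muscle markers, 6 were higher in the bulge by 2-fold or more, with a summed signal of 12.09 in the bulge and 10.55 in the hairshaft (log2). Endothelial markers were so for 6 of 6, at 9.19 and 5.29, with 3 of them at or below the floor in the hairshaft. Adipocyte markers were so for 5 of 5 measured, at 14.32 and 5.35, with 4 at or below the floor in the hairshaft, and Schwann cell markers for 3 of 5 measured, at 11.05 and 10.36. Of the other Schwann cell markers, Mbp had a difference of -0.96, toward the hairshaft, and Mag one of 0.00. Keratinocyte markers were under 2-fold apart for 4 of 4, at 16.51 and 16.54. They read 13.82 to 15.36 over both arrays, up to the highest value in the data. Whether signals this high can still show a difference was not tested. In the bulge array, 0 measured markers of these 5 lists were at or below the floor. The part of any of these cell types in the differences of the 9 genes was not tested.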

How the data were processed

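RNA of each structure (30 ng) was amplified linearly and labelled with biotin before hybridisation, per the labels' protocols. The deposited log2 values are GCRMA probe-set summaries, per the submitters' processing notes, which name no version or settings. Values ran from 2.23 to 15.36, which fixed the scale as log2. The sorted columns differed by at most 0.19, so no scaling was added, and 0 columns were unused. Of the probe sets, 34958 had 1 symbol, 932 several and 9211 none here; 34754 symbols were updated through Entrez identifiers (RefSeq, GRCm38.p6). Of a gene's probe sets, the one brightest on average was used. Amplification and dissection can change signals, and 2 arrays limit the precision. With 0 residual degrees of freedom no test was possible, so genes were counted at 2-fold and 8-fold. All members, up to 4 genes of largest difference per list and every gene of a count of 5 or fewer are named; the relatives and other receptor subunits were added after their values were seen. Members and lists were chosen with earlier results of these data known. The 9 alternatives were 3 floors, 2 probe-set choices, an offset of 16 and 3 scalings (loess span 0.3). Counting was tested on simulated data with a chosen noise and with changes placed in brighter genes only. That test does not cover genes as dim on average as Sgca, Chrna1, Cav3 and Dysf. Software was Python 3.11.15 with numpy 2.4.6, pandas 2.3.3, matplotlib 3.10.9 and statsmodels 0.14.6.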

Additional observations from a re-analysis of the deposited data

How the results depend on the processing

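Under the 9 alternatives the count of members higher in the bulge by 2-fold or more was 5 or 6, the count toward the hairshaft 0, and the median difference moved by less than 1.5-fold from 2.27. The 8-fold count of 2 became 0 with the 99th percentile floor and the offset of 16, and 1 with plain probe sets only and with each array's median as floor. Of 61 single-gene differences under the alternatives, 50 moved by less than 1.5-fold, 11 became smaller by more and 0 changed sign. All alternatives reuse the same 2 arrays, and some could move little. Removing the median difference left every member as it was, and quantile normalization met sorted columns that differed by at most 0.19. Dmd was 1.21 in place of 2.08 with the mean of its 4 probe sets; this mean includes the 2 below the floor. Chrna1 had no value with the 99th percentile floor, nor Dysf with plain probe sets only. In the complex list, the 1 gene higher in the hairshaft became 0 with the mean of probe sets and the offset. In the glycosylation list, the 1 gene higher in the bulge became 0 with plain probe sets, the offset, the loess trend removed and quantile normalization, and quantile normalization put 1 higher in the hairshaft in place of 0. In the junction list, the 2 higher in the bulge became 1 with both higher floors and the offset, and quantile normalization put 1 higher in the hairshaft in place of 0. In the repair list, the 6 higher in the bulge became 3 with plain probe sets, and the 1 higher in the hairshaft became 0 with the mean of probe sets, plain probe sets, the offset and the loess trend removed. The cause was not tested. No paired analysis was possible because each structure has 1 array. Leaving out a replicate was not possible. Signals near the floor limit Cav3, Chrna1, Dysf and Sgca in the hairshaft; Sgcd and Musk have no measured difference.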

Other observations

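Few nicotinic receptor subunits had a signal above the floor. Of 15 subunit genes measured, 7 were above the floor, and the 2 higher in the bulge by 2-fold or more were the muscle subunits Chrna1 and Chrnb1, at 4.19 and 3.88 in the bulge, both under the stricter floor of 4.21. Chrnb2, a subunit of neuronal receptors, read 4.85 in the bulge against 5.34 in the hairshaft (-0.49). Chrna7, Chrna9, Chrnb4 and Chrnd had the same value on both arrays, between 2.73 and 3.05 and so close to the floor of 2.68. These genes were looked at after their values were seen. Among all genes above the floor, 11.4% were higher in the bulge by 2-fold or more.

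Exact ties are common in the deposited table. Of 45101 probe sets, 17293 (38.3%) had an identical value on both arrays, and among the 28721 above the floor 3289 (11.5%) did. Of the 17 member probe sets, 4 were tied, and 1 of these, Dag1 1426779_x_at at 8.39, was above the floor, while other Dag1 probe sets differed by 0.31 to 0.56.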
